A study of Ovis aries with 16 samples.

Results

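Members of the miR-17/miR-92 family of microRNA (miRNA) clusters were followed in the liver and muscle of prenatally testosterone-treated and control sheep. The rule named 12 miRNAs: MIR17, MIR18A, MIR18B, MIR19A, MIR19B, MIR20A, MIR20B, MIR92A, MIR93, MIR25, MIR106A and MIR106B. Of these, 5 were among the 105 miRNAs of the deposited table: MIR17, MIR19B, MIR25, MIR106A and MIR106B. The other 7 names were not analysed here. All 5 matched the RefSeq annotation of the sheep assembly ARS-UI_Ramb_v3.0 by symbol. In that annotation MIR25 and MIR106B neighbour each other inside MCM7, MIR17 and MIR19B neighbour each other inside LOC132657304, and MIR106A has no listed miRNA beside it.

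The miR-17/miR-92 cluster is cut from a non-coding transcript that MYC and E2F factors activate, and it is best known for promoting cell cycle entry and cell survival. Mammals carry a pair of related clusters. An X-linked cluster holds miR-106a, and a cluster in an intron of MCM7, a subunit of the helicase that licenses DNA replication, holds miR-106b and miR-25. MIR17, MIR106A and MIR106B share a seed, the short stretch that pairs with target messages, and in human and mouse cells repress CDKN1A and E2F1, a cell cycle brake and driver. MIR19B has a seed of its own. MIR25 shares its seed with miR-92a and is known in human and mouse cells to repress the pro-apoptotic gene BCL2L11. In mouse muscle the cluster is known for promoting myoblast proliferation.

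The 8 female sheep were 4 ewes of a prenatal testosterone excess model (labelled prenatal T; ewes 48, 185, 233 and 255) and 4 control ewes (98, 131, 132 and 201). Each gave 1 liver and 1 muscle library of small RNA, so 16 libraries fell into 4 groups of 4: prenatal T liver, control liver, prenatal T muscle and control muscle. Breed, age at sampling, the testosterone dose and its window, and the muscle sampled are not stated in the labels. Both tissues are mixtures of cell types, in which fewer cells of a type and less miRNA per cell cannot be told apart.

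Liver libraries held 206304 to 755344 miRNA reads and muscle libraries 113522 to 885316, the fewest in prenatal T muscle of ewe 255. The skeletal muscle miRNA MIR133, the only one of 7 muscle markers in the table, took 37.2% to 56.4% of the miRNA reads in muscle and at most 0.227% in liver. The hepatocyte markers MIR148A and MIR194, 2 of 4 listed, summed to between 99722 and 146084 reads per 1000000 miRNA reads (RPM) in liver and between 1865 and 3507 in muscle, so these markers go with the tissue labels. The library numbers in the labels fall into a lower set, with liver of ewes 48 and 98 and all muscles but that of ewe 255, and a higher set with the rest. Tissue and library set therefore largely coincide. Liver of ewe 98 stood apart with 2274 RPM of MIR133, against 290 to 639 in the other 7 livers.

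The 5 miRNAs covered a wide range of levels, given with no length correction since mature miRNAs are of similar length. MIR25 was the most abundant of the 5 in every library, at 11097 ± 2186 RPM in liver and 5595 ± 1413 in muscle (SD, n = 8 each), and ranked between 18 and 26 of 105. MIR106B followed with 1418 ± 481 in liver and 1423 ± 275 in muscle, and MIR17 with 340 ± 39.9 in liver and 75.9 ± 23.5 in muscle. MIR106A had 50.3 ± 15.2 in liver and 5.95 ± 3.71 in muscle, and MIR19B 14.3 ± 6.47 in liver and 1.70 ± 1.61 in muscle. In the 8 livers no neighbours in this order overlapped. In muscle MIR106A and MIR19B overlapped, with 0 to 7 reads of MIR106A and 0 to 4 of MIR19B per library. A library without a read of MIR106A, prenatal T muscle of ewe 255, allows up to 26.4 RPM. MIR17 and MIR106A are close in sequence, and how reads that match both were assigned is not stated in the labels, so the split between these 2 is uncertain.

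**Figure D1:**
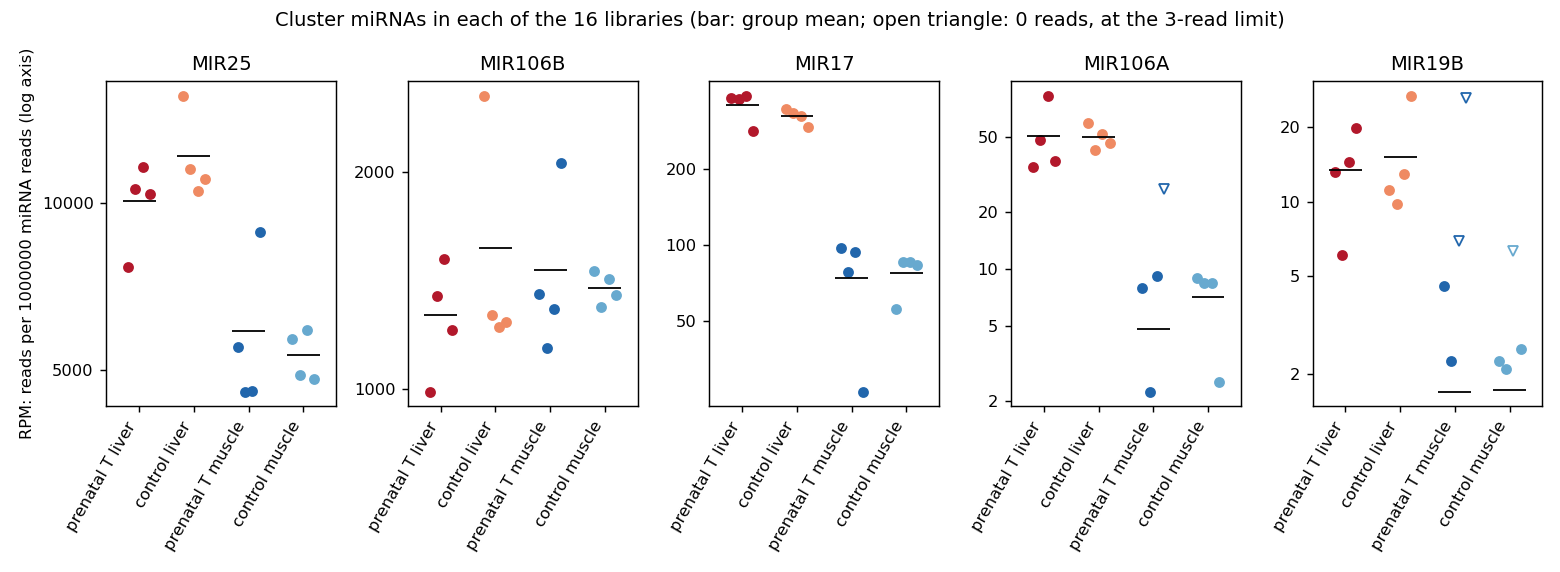
RPM (reads per 1000000 miRNA reads, log axis, scaled separately in each panel) of the 5 miRNAs in each library by group, with group means as bars and libraries without a read as open triangles at the limit that 0 reads allows. MIR17, MIR106A and MIR19B sat lower in muscle than in liver on this scale, while MIR106B averaged 1418 in liver and 1423 in muscle.

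Prenatal T and control ewes were compared within each tissue to find miRNAs that differ after the exposure. None of the 5 miRNAs passed the test in liver and none of the 3 testable ones in muscle. In liver, 4 of the 5 had a lower mean log2 value and 1 a higher one in prenatal T ewes. The median log2 fold change was -0.19, against 0.0052 over all 81 miRNAs tested. That median is the value of MIR19B, which has few reads. It reached the mean needed for testing only through control ewes, and not without control ewe 201. The count and the median are therefore descriptions. In muscle the median of the 3 was -0.047, against -0.045 over all 64 tested. The test was limma on log2(value + 1), where the value is the normalised read count deposited by the authors, with p-values adjusted over all miRNAs with a mean of at least 5. No miRNA of any kind passed in either tissue (0% of 81 and 0% of 64), and 0 miRNAs in liver and 5 in muscle had an unadjusted p under 0.05. edgeR and DESeq2 on the recovered reads called 0 of 81 in liver and 0 of 64 in muscle.

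Of the MCM7 pair, MIR25 had 2844, 4475, 3936 and 3688 normalised reads in prenatal T liver (ewes 48, 185, 233 and 255), against 5589, 4584, 4113 and 4380 in control liver (ewes 98, 131, 132 and 201). The lowest value was in prenatal T and the highest in control liver, and the groups overlapped between 4113 and 4475. The log2 fold change was -0.33 with an SE of 0.19, a 95% interval of -0.75 to 0.085 and a limma adjusted p of 0.959. MIR106B had 369, 571, 515 and 430 normalised reads in prenatal T liver, against 916, 505, 478 and 493 in control liver. Control ewe 98 alone lay above every prenatal T liver. The log2 fold change was -0.31 with an SE of 0.25, an interval of -0.85 to 0.24 and a limma adjusted p of 0.959. Among the 6 livers of the higher library set, which leaves out ewes 48 and 98, the log2 fold change was -0.12 for MIR25 and 0.029 for MIR106B. Without ewe 48 alone that of MIR25 was -0.21.

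In muscle the groups overlapped for both of the pair. MIR25 had 2387, 1836, 2035 and 2646 normalised reads in prenatal T muscle, against 2487, 1900, 2421 and 2056 in control muscle. Its log2 fold change was 0.00098 with an interval of -0.33 to 0.34 (limma adjusted p = 0.995). MIR106B had 589, 459, 574 and 615 normalised reads in prenatal T muscle and 640, 506, 585 and 576 in control muscle. Its log2 fold change was -0.047 with an interval of -0.40 to 0.31 (limma adjusted p = 0.936). These intervals leave out changes of 2-fold in either direction for MIR25 and MIR106B in both tissues.

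MIR17, the only member of the founding cluster with many reads, had 141, 159, 132 and 100 normalised reads in prenatal T liver, against 123.6, 132.5, 126.2 and 116.8 in control liver. Control livers lay within the range of the prenatal T livers, and the log2 fold change was 0.075 with an SE of 0.22 (limma adjusted p = 0.959). In muscle MIR17 had 42.2, 31.5, 41.9 and 7.89 normalised reads in prenatal T ewes and 24.6, 33.4, 35.3 and 35.6 in control ewes. The value of 7.89, in ewe 255, rests on 3 reads in the shallowest library. The muscle log2 fold change of -0.28 (SE 0.45, limma adjusted p = 0.825) turned to 0.25 without that library.

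The remaining pair had few reads. MIR106A had 12.8, 20.5, 28.0 and 13.3 normalised reads in prenatal T liver and 21.3, 16.9, 20.2 and 18.5 in control liver, with a log2 fold change of -0.11 and an SE of 0.29. Prenatal T livers lay on both sides of the control livers. MIR19B had 4.92, 2.56, 4.94 and 7.10 normalised reads in prenatal T liver and 3.99, 3.90, 5.05 and 10.7 in control liver, with a log2 fold change of -0.19 and an SE of 0.36. Both had a limma adjusted p of 0.959, and both fell below the filter in muscle. At this depth the test could not show small changes of these 2: the liver interval of MIR19B ran from -0.96 to 0.58 on the log2 scale.

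**Figure D2:**
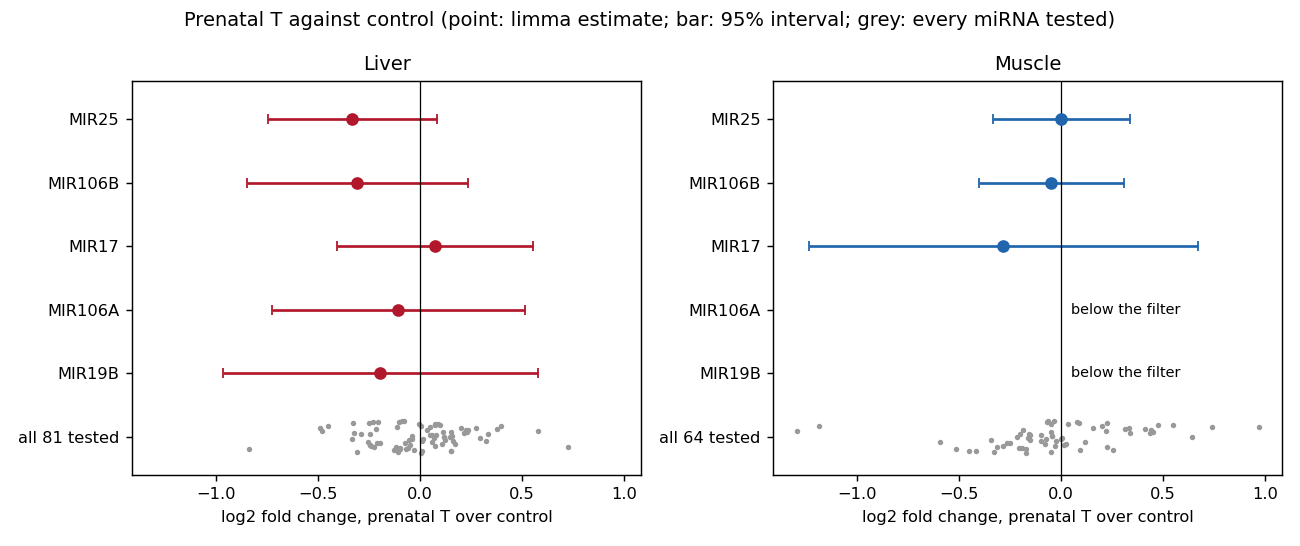
Log2 fold change of prenatal T over control in liver and muscle for the 5 miRNAs, with 95% intervals as bars, and for all 81 and 64 miRNAs tested as grey points (spread vertically only for sight). Every interval of the 5 miRNAs includes 0, and they lie within the spread of all miRNAs tested.

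No member's prenatal T and control values were free of overlap in either tissue. Over all miRNAs tested the groups did not overlap for 1.23% in liver and 3.12% in muscle. Whether the prenatal T effect differed between liver and muscle was tested in 1 fit over the 16 libraries, in which 0% of 76 miRNAs passed, with 2 at an unadjusted p under 0.05 and 0 called by edgeR or DESeq2. For MIR25 this difference was -0.33 on the log2 scale (SE 0.26, limma adjusted p = 0.752), for MIR106B -0.26 (SE 0.32, limma adjusted p = 0.841) and for MIR17 0.36 (SE 0.52, limma adjusted p = 0.841). MIR106A had a difference of 0.44 with an SE of 0.67. It passed the filter of this fit only through its liver values, so the difference is a description. With 5 added to each value in place of 1 it was 0.11, and with 0.5 added it was 0.65. MIR19B was below the filter.

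The tissues differed in how reads were divided among the 5 miRNAs. The 7 names not analysed are outside this total. MIR25 made up 84.0% to 87.4% of the reads of the 5 in liver and 76.6% to 80.9% in muscle. MIR106B made up 9.64% to 13.8% in liver and 18.8% to 21.6% in muscle. MIR17 made up 1.86% to 4.19% in liver and 0.241% to 1.58% in muscle. The ranges did not overlap between the tissues for any of these 3. The shares are parts of the same total, so these are not 3 separate results. The share of all miRNAs whose tissues do not overlap was not computed. Together the 5 took 0.908% to 1.85% of miRNA reads in liver and 0.579% to 1.09% in muscle.

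The ratio of MIR25 to MIR106B reads compares the MCM7 intron products analysed here within a library and does not depend on how libraries are scaled. It was 8.05 ± 0.959 in liver and 3.90 ± 0.268 in muscle (SD, n = 8 each). In prenatal T ewes the ratio was 7.71, 7.84, 7.64 and 8.57 in liver and 4.05, 4.00, 3.54 and 4.30 in muscle (ewes 48, 185, 233 and 255). In control ewes it was 6.10, 9.07, 8.61 and 8.88 in liver and 3.89, 3.76, 4.14 and 3.57 in muscle (ewes 98, 131, 132 and 201). All livers lay above all muscles, and the ratio was higher in liver in 8 of 8 ewes, by 1.57-fold to 2.49-fold. The mean log2 difference was 1.04. A two-sided exact sign-flip permutation test over all sign patterns of the 8 ewes gave p = 0.0078, the smallest it allows, and 0.0234 after adjustment over the 3 ratio tests. Large tissue differences were common among single miRNAs. Over all miRNAs tested the median absolute log2 fold change between tissues was 1.12 in prenatal T and 1.11 in control ewes. How many other pairs of miRNAs shift as much was not counted, so the shift is not shown to be particular to this pair. The 3 ewes with both libraries in the same library set had liver ratios 1.90-fold (ewe 48), 1.99-fold (ewe 255) and 1.57-fold (ewe 98) those of muscle.

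Between prenatal T and control ewes this ratio did not pass the test in either tissue. In liver it averaged 7.94 ± 0.426 in prenatal T and 8.17 ± 1.39 in control ewes, a log2 difference of -0.024 (two-sided exact permutation test over 70 assignments, p = 0.914, adjusted p = 0.914). In muscle it averaged 3.97 ± 0.314 in prenatal T and 3.84 ± 0.239 in control ewes, a log2 difference of 0.048 (exact permutation p = 0.543, adjusted p = 0.814). With 4 ewes against 4 the smallest p is 0.0286. The liver value rests on control ewe 98. Without it the 4 prenatal T livers, at 7.64 to 8.57, lay below the other 3 control livers, at 8.61 to 9.07. The log2 difference was then -0.16, with an exact permutation p of 0.0571. Within the higher library set, which leaves out ewes 48 and 98, the log2 difference was -0.14 with 3 ewes against 3 (exact permutation p = 0.10, the smallest possible). The other cluster pair, MIR17 and MIR19B, had as few as 3 reads of MIR17 and 0 of MIR19B in a library, below the 10 needed for such a ratio.

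**Figure D3:**
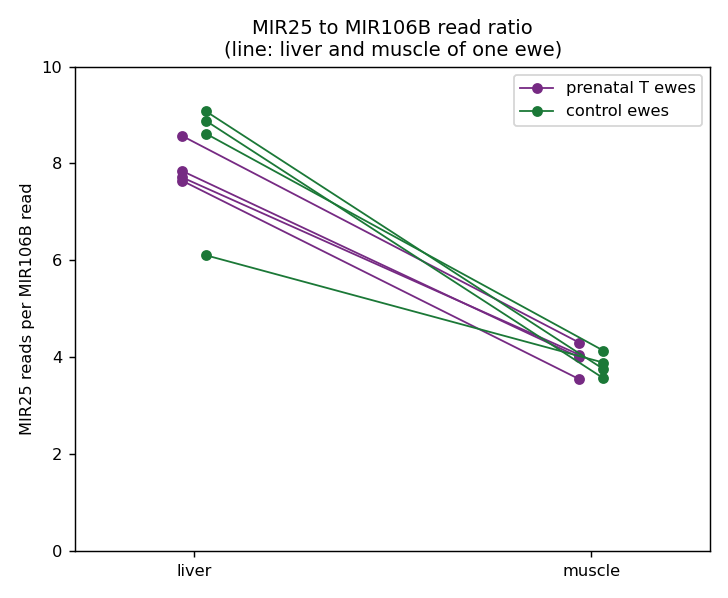
MIR25 reads per MIR106B read (axis from 0) in liver and muscle, with a line for each ewe coloured by treatment. Every line falls towards muscle, and the lowest liver value, 6.10 in control ewe 98, lies above the highest muscle value, 4.30.

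To set the tissues side by side across all miRNAs, recovered reads of the 8 libraries of an ewe group were scaled together by median-of-ratios factors. On this scale MIR106B was lower in liver in both ewe groups. In prenatal T ewes MIR106B had 256.4 to 371 scaled reads in liver and 776 to 954 in muscle, a log2 fold change of -1.48 (SE 0.21, limma adjusted p = 3.14e-05). In control ewes it had 278 to 516 scaled reads in liver and 794 to 996 in muscle, a log2 fold change of -1.38 (SE 0.20, limma adjusted p = 6.84e-05). The tissues did not overlap in either ewe group. With library set as a covariate the log2 fold change was -1.61 in prenatal T ewes (limma adjusted p = 5.78e-06) and -0.80 in control ewes. In prenatal T ewes each set held both tissues, though the lower set had only 1 liver and the higher set only 1 muscle. In control ewes the lower set held every muscle but only the liver of ewe 98. The value of -0.80 therefore sets that liver alone against the muscles and is given as an effect size only. That liver is flagged below for its MIR106B level. Such calls were common: 62.7% of 75 miRNAs passed in prenatal T ewes (36% higher and 26.7% lower in liver) and 76.3% of 76 in control ewes (42.1% higher and 34.2% lower in liver). The share of all miRNAs whose liver and muscle values do not overlap was not computed. A lack of overlap between tissues, here and below, is therefore not shown to be particular to these miRNAs.

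MIR25 was lower in liver in prenatal T ewes, with 1977 to 2910 scaled reads in liver and 3101 to 4063 in muscle and a log2 fold change of -0.48 (SE 0.18, limma adjusted p = 0.0329). Without ewe 48 this call was lost (log2 fold change -0.27, limma adjusted p = 0.238), as it was without a variance trend (limma adjusted p = 0.0509) and in RPM without MIR133 (log2 fold change -0.21, limma adjusted p = 0.327). In control ewes MIR25 had 2393 to 3152 scaled reads in liver and 2984 to 3932 in muscle, a log2 fold change of -0.31 that did not pass (SE 0.16, limma adjusted p = 0.0876). Whether the tissue difference itself differs between ewe groups was tested only in the fit of the prenatal T effect between tissues given above, which did not pass. That fit used the values as deposited, so its estimate for MIR25 (-0.33) is not the difference of the contrasts given here.

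MIR17 and MIR106A lay the other way on this scale. MIR17 had 69.2 to 104 scaled reads in liver and 12.1 to 68.3 in muscle of prenatal T ewes, a log2 fold change of 1.09 that did not pass (SE 0.47, limma adjusted p = 0.0523). The tissues did not overlap, and the value of 12.1 belongs to ewe 255. MIR17 passed in 7 of 15 alternatives, among them the ewe as a block (limma adjusted p = 0.0219), library set as a covariate (log2 fold change 1.70, limma adjusted p = 0.00242), a pseudocount of 5 (limma adjusted p = 0.0378), DESeq2 (adjusted p = 0.0318) and RPM without MIR133 (limma adjusted p = 0.0131). In RPM and with the values as deposited it also passed (log2 fold changes 2.37 and 2.29, limma adjusted p = 9.37e-05 and 0.000135). In edgeR and with TMM scaling it did not (adjusted p = 0.0973 and 0.0820). Without ewe 255 the log2 fold change was 0.55 (limma adjusted p = 0.0993). In control ewes MIR17 had 69.7 to 81.3 scaled reads in liver and 38.4 to 57.3 in muscle, a log2 fold change of 0.57 (SE 0.20, limma adjusted p = 0.0208). This call was lost without ewe 131, 132 or 201 (limma adjusted p = 0.0837, 0.0733 and 0.0846). With library set as a covariate the log2 fold change was 0.47 in control ewes. That fit sets the liver of ewe 98 alone against the muscles, so it cannot decide whether the call holds. MIR106A passed the filter only through its liver values, so its values are given as a description. It had 8.89 to 19.2 scaled reads in liver and 0 to 6.25 in muscle of prenatal T ewes, and 10.4 to 11.99 in liver and 1.65 to 6.14 in muscle of control ewes. The tissues did not overlap in either ewe group. The size of its log2 fold change depends on the pseudocount: 1.98 in prenatal T and 1.25 in control ewes with 1, and 1.12 in prenatal T and 0.81 in control ewes with 5.

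These directions are relative to the other miRNAs, since the scaling sets where 0 lies. The median log2 fold change of all miRNAs was 0.20 in prenatal T and 0.13 in control ewes with median-of-ratios factors, and 1.495 in prenatal T and 1.62 in control ewes when libraries were scaled to RPM, a total that MIR133 dominates in muscle. In RPM, MIR25 turned to 0.81 in prenatal T and 1.18 in control ewes and passed as higher in liver (limma adjusted p = 0.00467 and 2.85e-05), the opposite of its call in prenatal T ewes. With the values as deposited it passed as higher too (0.74 in prenatal T and 1.07 in control ewes, limma adjusted p = 0.00245 and 3.50e-05). In RPM, MIR106B moved to -0.19 in prenatal T and 0.11 in control ewes, where it no longer passed (limma adjusted p = 0.487 and 0.684). Relative to the median of all miRNAs, MIR106B stood at -1.68 in prenatal T and -1.52 in control ewes and MIR25 at -0.68 in prenatal T and -0.45 in control ewes. On the same footing MIR17 stood at 0.90 in prenatal T and 0.44 in control ewes. A scaling moves such miRNAs nearly alike, so the differences of MIR106B, MIR25 and MIR17 from the median hardly depend on it by construction. MIR106A, again only as a description, stood at 1.78 in prenatal T and 1.12 in control ewes. Its distance from the median did depend on the scaling, with 1.53 in prenatal T and 0.88 in control ewes in RPM.

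**Figure D4:**
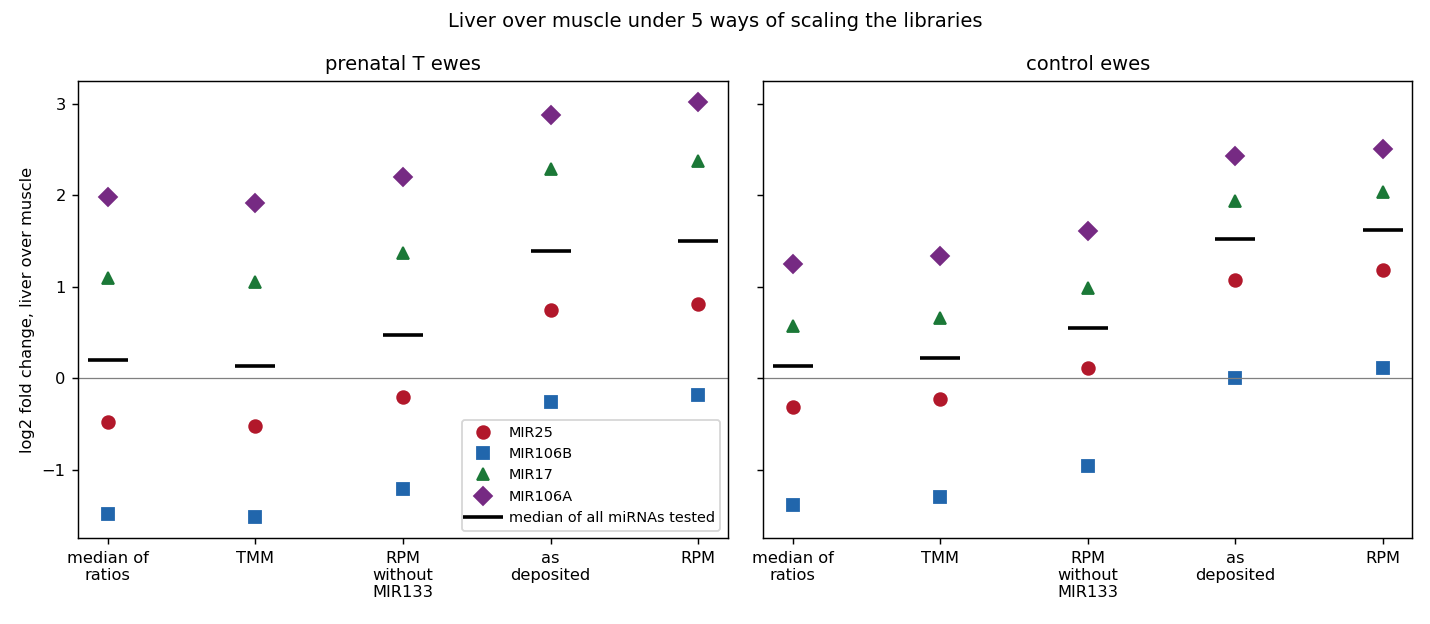
Log2 fold change of liver over muscle for MIR25, MIR106B, MIR17 and MIR106A in prenatal T and control ewes under 5 scalings, with the median of all miRNAs tested as a black bar. The points shift nearly together with the scaling, as its construction sets, MIR106A less closely than the others. What a reader should see is where 0 falls: MIR25 lies below 0 with median-of-ratios factors and above 0 in RPM. MIR106A passed the filter only through its liver values and is shown as a description.

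Variation between ewes within a group was also described, as deviations of log2(normalised reads + 1) from the group mean over the 16 libraries. Of 63 other miRNAs, those whose deviations were most like MIR25 were MIR150 (Pearson r = 0.86), MIR106B (0.84) and MIRLET7A (0.73). For MIR106B they were MIR25 (0.84), MIRLET7B (0.76) and MIR150 (0.68). The MCM7 pair thus varied together, with r = 0.88 over the 8 livers, 0.88 over the 8 muscles and 0.85 without muscle of ewe 255. MIR25 was the miRNA most like MIR106B in each tissue. MIR25 itself was more like MIR150 in liver (0.94). In muscle it was more like MIR16B (0.954) and MIRLET7A (0.884) than MIR106B (0.877). Such likeness is therefore not particular to the pair. MIR17 had r = -0.34 to MIR25 and -0.10 to MIR106B, which without muscle of ewe 255 were -0.092 and 0.044, and over the 8 livers 0.13 and 0.18. Over the 8 muscles, with ewe 255 among them, they were -0.56 and -0.36. The miRNAs most like MIR17 were MIR374B (0.96), MIR29A (0.89) and MIR152 (0.87). Without muscle of ewe 255 these values were 0.86, 0.72 and 0.75. In every value given without that library, the group means still included it. Prenatal T muscles of ewes 48, 185 and 233 thus kept positive deviations for MIR17 (0.67, 0.27 and 0.66). The same held for MIR374B (1.28, 0.31 and 0.79), so the pull of that library on r was not fully removed. Points of a library share its depth and scaling factor, so these values are descriptions.

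**Figure D5:**
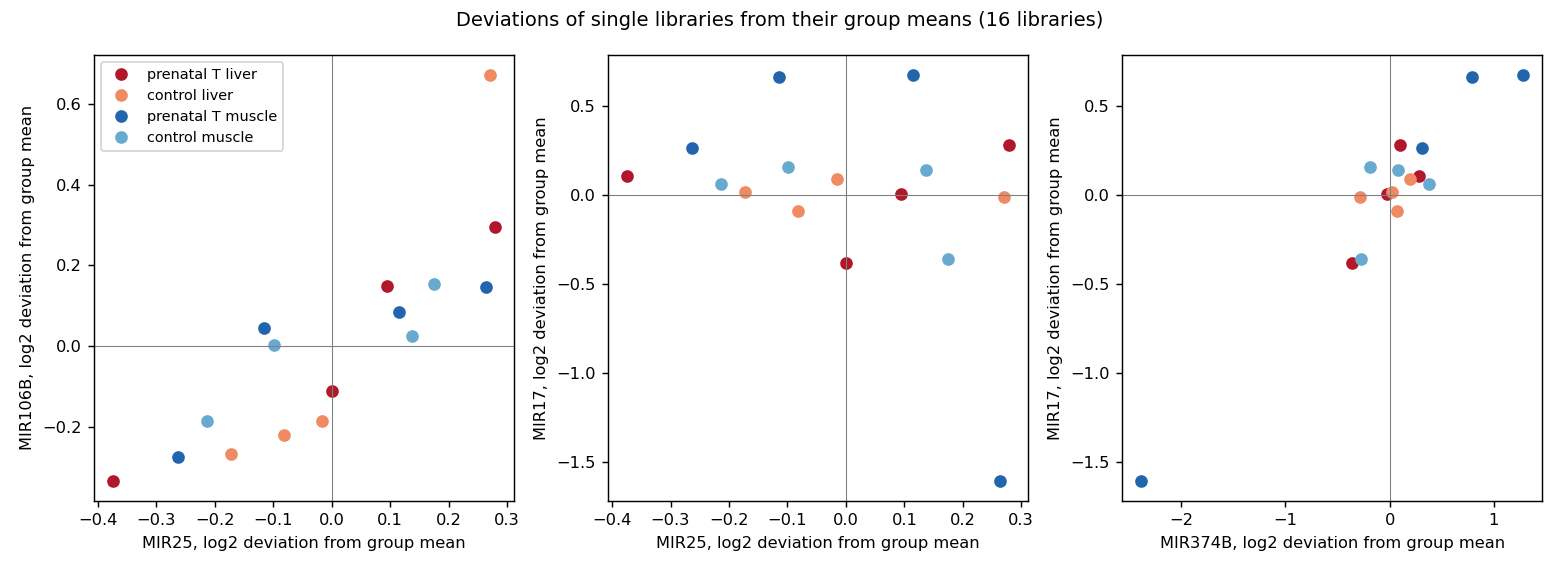
Deviations of log2(normalised reads + 1) from the group mean in 16 libraries, for MIR106B against MIR25, MIR17 against MIR25 and MIR17 against MIR374B. The MCM7 pair lies along a line (r = 0.84), and MIR17 has r = -0.34 to MIR25 (-0.092 without muscle of ewe 255, with group means that still include it). A single point, prenatal T muscle of ewe 255, lies far from the rest for MIR17 and MIR374B.

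Of the blood cell markers, MIR150 was high or low together with the MCM7 pair in some libraries. MIR150, a lymphocyte miRNA, ranged from 877.7 to 1551 RPM in prenatal T liver and from 1064 to 1844 in control liver. It had 877.7 RPM in liver of prenatal T ewe 48, the lowest liver, where MIR25 and MIR106B were also lowest, and 1844 in liver of control ewe 98, where both were highest. In muscle MIR150, with 1888 to 5312 RPM in prenatal T ewes and 2933 to 3860 in control ewes, was highest in ewe 255 in RPM, as were MIR25 at 8862 and MIR106B at 2061, in the library where MIR133 took the smallest share of reads. In normalised reads MIR25 was highest there too (2646), but MIR150 had 1586 there against 1693 in control ewe 98, and MIR106B 615 against 640. The erythroid list of 5 names had only MIR16B in the table, at 3000 to 6074 RPM in prenatal T liver and 4651 to 6057 in control liver, and at 2070 to 4739 in prenatal T muscle and 2240 to 2876 in control muscle. MIR16B was lowest in liver of ewe 48 too, but was not raised in liver of ewe 98, with 4958 RPM and 1780 normalised reads, the fewest normalised reads of the control livers. Its prenatal T log2 fold change was -0.24 in liver and -0.028 in muscle, neither of which passed (limma adjusted p = 0.959 and 0.936). Over the 8 muscles it was the miRNA most like MIR25 (r = 0.95). The part of blood cells in these values was not tested.

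MIR16B is also the only measured member of the SMC4-hosted miR-15b/16-2 pair, another proliferation-linked cluster. MYC, which activates the miR-17/miR-92 cluster, is reported in human and mouse cells to repress other miRNAs, and 14 of 23 such names were measured, as 15 rows that include the let-7, miR-29, miR-26 and miR-30 families. In prenatal T liver 0 of the 15 passed, with 7 higher and 8 lower in mean and a median log2 fold change of -0.036, against 0.0052 over all miRNAs. In prenatal T muscle 0 of the 15 passed, with 3 higher and 12 lower and a median of -0.067, against -0.045 over all.

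Between tissues 9 of the 15 passed as lower and 0 as higher in liver in prenatal T ewes (26.7% lower and 36% higher over all 75 miRNAs tested). In control ewes 12 passed as lower and 0 as higher (34.2% lower and 42.1% higher over all 76). The list had medians of -0.83 in prenatal T and -0.87 in control ewes against 0.20 and 0.13 over all miRNAs. Of its 4 most abundant members, MIRLET7A was lower in liver, with log2 fold changes of -0.93 in prenatal T and -0.81 in control ewes, as was MIRLET7G, with -0.74 in prenatal T and -0.89 in control ewes (limma adjusted p at most 0.000364 for these 4 values). The let-7 miRNAs restrain growth genes and are known to rise as cells differentiate. MIR26A did not pass in prenatal T ewes (-0.22, limma adjusted p = 0.105) and was lower in liver in control ewes (-0.42, limma adjusted p = 0.0356), and MIRLET7F passed in neither (0.058 in prenatal T and -0.068 in control ewes, limma adjusted p = 0.729 and 0.750). These values use median-of-ratios scaling, and the shift of the median of all miRNAs under other scalings, given above, applies to them too. MIR16B was lower in liver in control ewes (log2 fold change -0.51, limma adjusted p = 0.0208) and did not pass in prenatal T ewes (-0.56, limma adjusted p = 0.0503). MIR29B-1 and MIR29B-2 hold identical values and count the same reads. The paralogs outside the rule, MIR92B, MIR363, MIR32 and MIR367, were not analysed here.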

How the data were processed

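Total RNA was extracted with Trizol and small RNA libraries were made with a NEBNext kit, per the labels' protocols. Tools listed in the submitters' processing notes are STAR 2.6.0c, featureCounts 1.6.1 and cutadapt 3.2. Their roles, the read filters, the build, and whether both arms of a miRNA were counted together: not given in the sources used here. What the authors deposited is a normalised signal: read counts divided by a factor for each library within each tissue. All 1432 miRNA values above 0 (100%) and all 10585 lncRNA values were whole multiples of 1 read within 0.001 reads, which gave the recovered reads and the depth. A miRNA is named as the table names it, and no sequence is shown.

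Within tissues, limma 3.58.1 (R 4.3.3, variance trend) was run on log2(value + 1) for miRNAs with a mean of at least 5, which kept 81 of 105 in liver and 64 in muscle, with Benjamini-Hochberg adjustment over all of them and a threshold of 0.05. Fold changes on this scale understate changes of low miRNAs. Tissues were compared with the same test on recovered reads scaled by median-of-ratios factors, 76 miRNAs in control and 75 in prenatal T ewes. Read ratios were tested by exact permutation. Alternatives were edgeR 4.0.16, DESeq2 1.42.0, other pseudocounts, filters and scalings, library set, the ewe as a block and leaving out each ewe. Liver and muscle of an ewe come from the same animal, per the labels, which pairs them; their deviations correlated at r = -0.17 to 0.44 over 64 miRNAs, above 0.1 in 3 of 8 ewes.

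The test was tried on simulated reads (20 simulations), with 20 miRNAs changed in each, some 2-fold and the others 4-fold. The liver comparison recovered 72% of 2-fold and 98.5% of 4-fold changes among 81 miRNAs. The muscle comparison recovered 83% and 98% among 64. The adjustment is stricter when fewer miRNAs change. Recovery of a change in only a few miRNAs was not simulated and may be lower. Replicates differed beyond counting noise (chi-square per degree of freedom 24.2 to 292), so none was treated as a duplicate. The limit for 0 reads is 3 reads of the library's miRNA reads; it covers counting error only. Every member with values was named, at most 4 of each other list by highest mean, and the 3 most alike by Pearson r. The members and lists were chosen with earlier results of these data known. The snoRNA and snRNA values were not used, and the lncRNA values only for the whole-read check.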

Additional observations from a re-analysis of the deposited data

Results flagged for a closer look

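Of 24 sets of 4 libraries examined (a miRNA or the MIR25 to MIR106B ratio in a group), 3 held a library far from the other 3 by Dixon's test, and chance alone flags about 1 in 20. MIR106B had 915.8 normalised reads in control liver of ewe 98, against 478 to 505 in the other control livers (gap of 0.937 of the range, critical value 0.829). The MIR25 to MIR106B ratio of the same library was 6.10, against 8.61 to 9.07 (0.845). That liver also had the highest MIR133 level and belongs to the lower library set; whether these go with its MIR106B level was not tested. MIR19B had 10.7 normalised reads in control liver of ewe 201, against 3.90 to 5.05 (0.831), which is 11 reads against 3 to 5.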

How the results depend on the processing

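The count of 0 calls for prenatal T against control held in both tissues and for the difference between tissues under every alternative tried; the tissue counts stayed within 1.5 times (44 to 61 in prenatal T ewes, 48 to 63 in control ewes). Within tissues and for the difference between them, signs of member estimates turned, none of them a call; the cause was not tested. In liver, leaving out 1 ewe each gave log2 fold changes of -0.32 to 0.041 for MIR106A, -0.018 to 0.20 for MIR17 and -0.37 to 0.029 for MIR19B, and the higher library set alone gave 0.090 for MIR106A and 0.029 for MIR106B. In muscle, leaving out 1 ewe each gave -0.11 to 0.044 for MIR106B, -0.51 to 0.25 for MIR17 and -0.087 to 0.089 for MIR25. MIR106B was 0.045 in RPM, MIR17 was 0.066 in edgeR and 0.032 in DESeq2, and library set as a covariate or the lower set alone gave 0.25 for MIR17 and -0.087 for MIR25. For the difference between tissues, MIR17 was -0.0018 in edgeR, and leaving out 1 library each gave -0.18 to 0.58 for MIR17 and -0.012 to 0.77 for MIR106A.

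In the liver over muscle contrast the scaling turned MIR25, a call as lower in prenatal T ewes, to calls as higher in RPM and as deposited in both ewe groups. MIR25 was 0.81 in RPM and 0.74 as deposited in prenatal T ewes, and 1.18 in RPM, 0.11 without MIR133 and 1.07 as deposited in control ewes, where MIR106B was 0.11 in RPM. With the ewe as a replicate block, 50 miRNAs in prenatal T and 58 in control ewes passed, against 47 and 58 without it. MIR17 in prenatal T ewes gained its call (log2 fold change 1.09, limma adjusted p = 0.0219), and the block changed no other call on a member. The MIR25 to MIR106B difference between prenatal T and control liver ran from -0.16 to 0.032 on the log2 scale when 1 ewe was left out. The tissue difference of this ratio was 0.86 in the 3 ewes with both libraries in the same set, where an exact test cannot go below p = 0.25; this setting, library set as a covariate between tissues, and the correlations without muscle of ewe 255 were chosen after seeing the data. Depth limits MIR19B and MIR106A in muscle, where a library held at most 4 and 7 reads of them.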
